A study of Rattus norvegicus with 16 samples.

Results

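Glypicans and syndecans are the membrane-bound heparan sulfate proteoglycans of the cell surface. All 10 rat genes of both families were taken by name, the 6 glypicans Gpc1 to Gpc6 and the 4 syndecans Sdc1 to Sdc4, out of 31038 genes in the files, with no threshold on a measured value, although earlier results of these data were known. RNA was sequenced from Schwann cells, the glia of peripheral nerve, purified from rat sciatic nerve, and from whole sciatic nerve without purification. For each tissue there were 4 groups of 2 libraries, namely uncrushed nerve and, after a crush, nerve of days 3, 5 and 7, giving 16 libraries in all. The labels give postnatal day 18 for all animals. The study describes this as the age at crush, so that animals of later days were older when the nerve was taken, and age at collection and time after crush cannot be told apart. No transgene was part of the design. Animals received carprofen, an anti-inflammatory analgesic, with the crush surgery, and the uncrushed groups had no sham surgery, so that crush cannot be told apart from surgery and analgesia. The tissue came from the segment distal to the crush or its anatomical equivalent. Each library pooled at least 10 nerves, so that the p-values below measure the spread between 2 libraries and not between animals.

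Glypicans are held on the outer membrane leaflet by a lipid anchor, whereas syndecans cross the membrane and carry a short cytoplasmic tail. Both families bear heparan sulfate, a sulfated sugar chain that binds growth factors, morphogens and matrix proteins and presents them to their receptors. In peripheral nerve, Schwann cells lay down a basal lamina rich in heparan sulfate binding proteins, and they exchange heparin-binding factors such as fibroblast growth factors and GDNF with axons.

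Of the members called at all 3 times in Schwann cells, Sdc4, Gpc4 and Sdc1 had a promoter in the RefSeq table used here, and their 250 bases before the annotated start are shown because Sdc4 and Gpc4 fell after crush whereas Sdc1 rose. Promoters were held for 7 of the 10 members, and for Gpc1, Gpc6 and Sdc2 none was used. The build is GRCr8, and the windows are at chr3:173592924-173593173 on the minus strand (Sdc4), chrX:136676058-136676307 on the minus strand (Gpc4) and chr6:37281791-37282040 on the plus strand (Sdc1). Capitals mark matches to any of the motifs searched on both strands, which were the GC box GGGCGG, the TATA motif TATAA, the AP-1 motif TGANTCA, the cyclic AMP response element TGACGTCA, the Sox motif ACAANG and the kappaB consensus.
Sdc4 promoter: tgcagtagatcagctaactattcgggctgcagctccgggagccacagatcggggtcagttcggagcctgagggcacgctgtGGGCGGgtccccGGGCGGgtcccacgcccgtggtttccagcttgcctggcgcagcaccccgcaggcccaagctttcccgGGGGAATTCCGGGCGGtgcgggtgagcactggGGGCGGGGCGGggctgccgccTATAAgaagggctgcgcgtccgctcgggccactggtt
Gpc4 promoter: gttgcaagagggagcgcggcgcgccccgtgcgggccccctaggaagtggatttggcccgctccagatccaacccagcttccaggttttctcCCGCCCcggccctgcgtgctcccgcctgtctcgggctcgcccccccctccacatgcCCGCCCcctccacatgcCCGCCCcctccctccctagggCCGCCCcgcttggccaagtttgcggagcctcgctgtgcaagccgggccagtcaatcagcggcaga
Sdc1 promoter: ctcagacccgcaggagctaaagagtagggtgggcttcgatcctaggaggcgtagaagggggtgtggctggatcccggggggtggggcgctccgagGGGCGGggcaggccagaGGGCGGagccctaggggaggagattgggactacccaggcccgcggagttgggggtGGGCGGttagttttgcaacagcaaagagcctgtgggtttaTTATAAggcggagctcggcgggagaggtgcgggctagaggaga
The study's own reverse transcription PCR oligonucleotide for Gpc1, the member with the largest rise, had 17 bases.
Gpc1 oligonucleotide: cgctagtcgcctgcacc

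The windows of all 3 genes were rich in G and C, at 70.0% for Sdc4, 71.6% for Gpc4 and 65.2% for Sdc1, where the median of 33469 promoters was 51.2%. The GC box was found 5 times in the Sdc4 window, with the pair nearest the start overlapping, 4 times in the Gpc4 window and 3 times in the Sdc1 window. It occurred in 30.5% of all promoters. A TATAA match lay 37 to 33 bases before the start of Sdc4. In Sdc1 a match on each strand overlapped at 43 to 38 bases before the start. The motif was in 24.0% of all promoters and was not found in the Gpc4 window. A kappaB match, found in 3.54% of all promoters, lay in the Sdc4 window only, 90 to 81 bases before the start and directly beside a GC box. The letters of the AP-1 motif (6.34% of promoters), the cyclic AMP response element (1.59%) and the Sox motif (36.9%) were not found in these 3 windows. Gpc3 and Sdc3, called lower in Schwann cells at days 5 and 7, had windows with 4 GC boxes each, and the Gpc3 window held a Sox match 52 to 47 bases before the start.

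Libraries held between 10555067 and 27562637 assigned fragments. Values of single genes compared across libraries are CPM, counts relative to library size after scaling by the trimmed mean of M-values. Levels of different genes, and sums over a family, are given in FPKM as deposited, which corrects for gene length. The 2 scales differed in whole nerve. The scaling factors of the 2 uncrushed whole nerve libraries were 0.820 and 0.821, and those of the other 14 lay between 0.994 and 1.07. The median change of all genes in whole nerve was 0.294, 0.294 and 0.302 at days 3, 5 and 7 on the log2(FPKM + 1) scale, and 0.404, 0.395 and 0.411 on the log2(FPKM + 0.1) scale. Calls or directions of several whole nerve members depended on the scale. Tests were the quasi-likelihood test of edgeR with Benjamini-Hochberg adjustment over all genes tested, and a gene that passed an adjusted p of 0.05 is called changed. With 2 libraries against 2, an exact permutation test cannot go below 0.333, so none was used.

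The labels were checked against markers of the cell types a nerve contains. All 8 Schwann cell markers were detected in the purified cells. Against whole nerve, 5 of them were higher and 3 lower in uncrushed samples, 8 were higher at days 3 and 5, and 6 were higher and 0 lower at day 7. Their summed level was 18005 to 18711 CPM in uncrushed Schwann cells and 39295 to 47156 CPM in uncrushed nerve, whereas after crush it was 9981 to 13805 CPM in Schwann cells and 4880 to 9156 CPM in whole nerve. Sox10, a transcription factor of the lineage, was above whole nerve at each time. Summed over 8 macrophage markers, purified Schwann cells had 5.70 to 22.3 CPM and whole nerve had 330 to 1040 CPM. The second day 3 Schwann cell library held the 22.3 CPM, against 5.70 CPM in the other library of that group. The sum over 5 perineurial markers was 590 to 592 CPM in uncrushed and 279 to 311 CPM in crushed Schwann cells, against 491 to 948 CPM in whole nerve, so that it fell in the same Schwann cell libraries as Sdc4, Gpc4 and Gpc3. Of it, 543 and 544 CPM in uncrushed Schwann cells were Itgb4, an integrin subunit that Schwann cells also express, and the tight junction gene Cldn1 had 1.93 and 2.39 CPM there. Msln and Lypd2 had at most 3 counts in each of those libraries, and the rest of the sum was mostly Slc2a1. For 6 pericyte and muscle markers the sum was 4.26 to 13.2 CPM in Schwann cells. The 2 uncrushed whole nerve libraries had 251 and 537 CPM of these markers and the crushed ones 183 to 219 CPM, with 5 of 6 called lower at day 3, when Gpc6, Sdc2 and Sdc3 were also called lower. The part of either list in the members' changes was not tested. The sum over 8 endothelial markers was 5.07 to 25.7 CPM in Schwann cells and 322 to 405 CPM in whole nerve. For 8 fibroblast markers the sum in Schwann cells was 6450 to 7270 CPM in uncrushed cells and 1495 to 2210 CPM after crush, against 24122 to 32875 CPM in whole nerve. Most of that signal in Schwann cells came from the collagens Col1a1, Col3a1 and Col1a2. The fibroblast markers Pdgfra and Pi16 stayed between 0.665 and 2.39 CPM and between 0.172 and 0.346 CPM in the Schwann cell group means. Single values of Fn1, Dcn and Lum are not given here. Of 7 fibroblast markers tested in Schwann cells, 1 was higher and 2 lower at day 3 (26.9% and 25.7% of genes). At day 5, 0 were higher and 3 lower (29.0% and 25.6%), and at day 7, 0 were higher and 1 lower (25.0% and 21.9%). The part of this list in the members' changes was not tested.

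Levels per length set 1 member of each family apart. In uncrushed Schwann cells Sdc4 had 462 and 411 FPKM, followed by Sdc3, Sdc2, Gpc4, Gpc1, Gpc6 and Gpc3, and libraries of neighbours in that order did not overlap. The lowest members were Gpc2 and Sdc1, whose libraries overlapped, and Gpc5, which was listed at 0. At day 3 Gpc1 had moved up to second place, with 133 and 146 FPKM, behind Sdc4 at 162 and 183 FPKM. The summed FPKM of the 6 glypicans was 23.1 ± 0.0778 (SD, n = 2) in uncrushed Schwann cells, and 147 ± 10.3, 98.9 ± 6.39 and 65.3 ± 4.62 on days 3, 5 and 7. Summed FPKM of the 4 syndecans went the other way, from 497 ± 35.8 to 229 ± 18.8, 245 ± 38.7 and 256 ± 30.6. The size of these changes over time depends on the scale. Mean Sdc2 in Schwann cells, for instance, went from 21.5 to 24.0 FPKM between uncrushed and day 3 but from 48.1 to 46.5 TPM. Gpc4 made up 48.1% of the glypican FPKM in uncrushed Schwann cells and 2.45% at day 3, whereas Gpc1 made up 22.8% and then 94.9%. Sdc4 was 87.8% of the syndecan FPKM in uncrushed Schwann cells and 75.5% to 78.8% after crush.

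**Figure D1:**
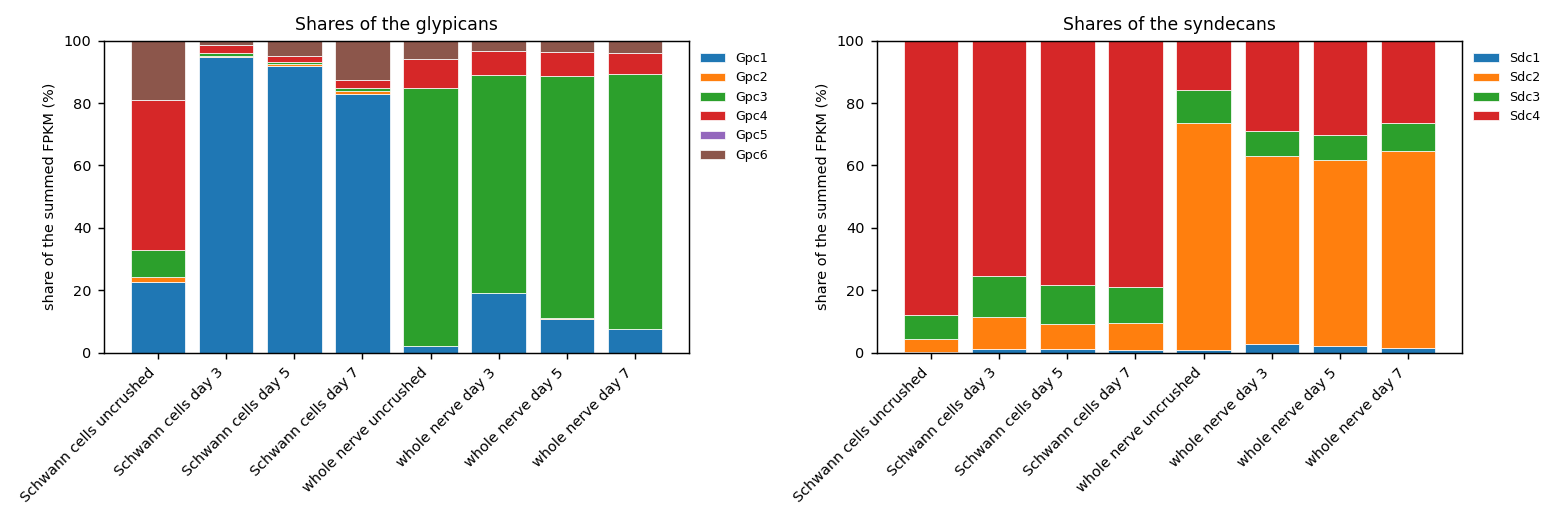
Each bar is 1 group and stacks the mean share (%) of every member in the summed FPKM of its family over 2 libraries, glypicans on the left and syndecans on the right. Gpc1 takes 94.9% of the glypican FPKM in Schwann cells at day 3 but 19.2% in whole nerve, where Gpc3 takes 69.7%.

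Whole nerve had another leading member in each family. In whole nerve, fewer cells of a type and less RNA per cell cannot be told apart. Schwann cells were digested, dissociated and panned before lysis whereas whole nerve was not, so that cell type and handling cannot be told apart by these 16 libraries. Dissociated nerve, which the study also sequenced, was not analysed here. Gpc3 held 82.6% of the glypican FPKM in uncrushed whole nerve and 69.7% to 81.8% after crush. Sdc2 held 72.5% of the syndecan FPKM before and 59.7% to 63.2% after crush. Over all 8 groups, each with 10 ordered members, 63 of the neighbouring pairs in the order of FPKM did not overlap. Some of these pairs were with Gpc5 at or near 0 FPKM, and ordering by the same means favours separation.

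After crush, Gpc1 and Sdc1 rose in Schwann cells, and Sdc4 and Gpc4 fell, at each of the 3 times. Of the 9 members tested at day 3, 2 were higher and 3 lower than in uncrushed Schwann cells, where 26.9% of all 14961 genes tested were called higher and 25.7% lower. At day 5, 2 were higher and 4 lower (29.0% and 25.6% of genes). At day 7, 3 were higher and 4 lower (25.0% and 21.9%). In whole nerve 3 members were higher and 3 lower at day 3, where 23.1% and 22.5% of 15831 genes were called. There, 3 were higher and 2 lower at day 5 (18.9% and 19.5% of genes), and 2 higher and 1 lower at day 7 (15.4% and 15.9%). With 9 members tested, these counts were not tested against the share of all genes called, and no result about the families is read from them. Gpc5 had too few counts to be tested in any comparison. From day 3 to day 7, 1 member rose and 2 fell in Schwann cells (10.2% and 10.7% of genes). In whole nerve 0 rose and 2 fell (9.85% and 11.4% of genes), and there Gpc3 (0.33, edgeR adjusted p = 0.069) was called higher in 5 of 12 alternatives and Gpc6 (0.37) in 2.

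**Figure D2:**
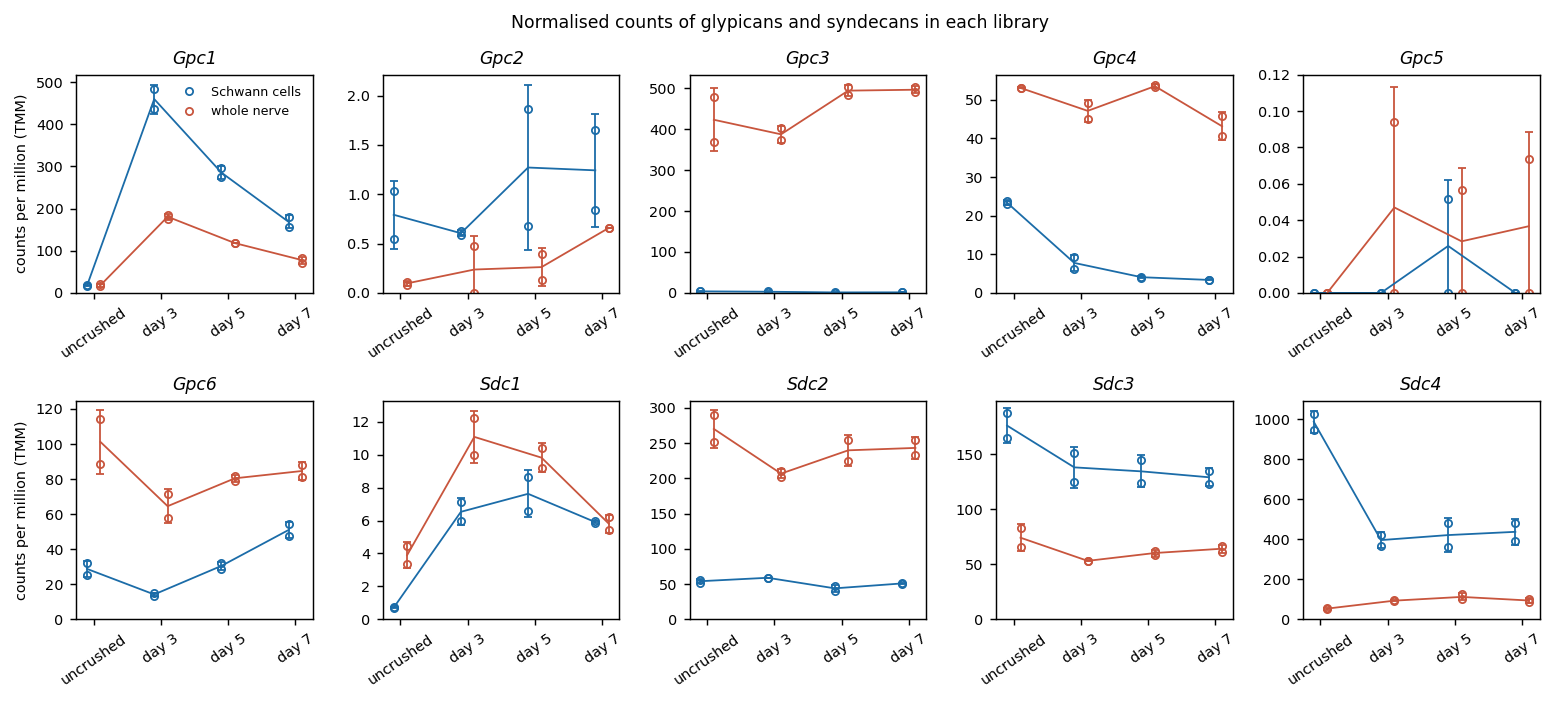
Each panel shows 1 member, with CPM on a linear axis against time for Schwann cells (blue) and whole nerve (red). Circles are single libraries, lines join the group means and bars are the SD of 2 libraries, so that the rise of Gpc1 from 16.2 and 18.0 to 435 and 484 CPM in Schwann cells and the fall of Sdc4 from 1026 and 948 to 368 and 423 CPM can be read beside whole nerve.

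Gpc1, a glypican known to bind fibroblast growth factors and Slit proteins, showed the largest change of all members. In uncrushed Schwann cells its 2 libraries had 16.2 and 18.0 CPM. They had 435 and 484 CPM at day 3, 274 and 296 CPM at day 5, and 157 and 180 CPM at day 7. Uncrushed and crushed libraries did not overlap at any time, and day 3 was the highest. The rise was 27.5-fold at day 3 (log2 fold change 4.78, SE 0.13, edgeR adjusted p = 4.1e-08), 17.0-fold at day 5 and 10.0-fold at day 7. From day 3 to day 7 Gpc1 fell by 1.46 on the log2 scale (SE 0.11, edgeR adjusted p = 3.8e-05).

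In whole nerve Gpc1 had 15.8 and 20.4 CPM before crush, a range that overlapped with that of uncrushed Schwann cells. It had 186 and 176 CPM at day 3, 118 and 118 CPM at day 5, and 71.9 and 83.6 CPM at day 7. The whole nerve rise was 9.60-fold at day 3 (log2 3.26, SE 0.13, edgeR adjusted p = 3.2e-08), 6.16-fold at day 5 and 4.07-fold at day 7, so that the order of the days was as in Schwann cells. Uncrushed Schwann cells and uncrushed nerve differed by -0.07 in log2 Gpc1 (95% interval -0.34 to 0.20). After crush the Schwann cells stood 2.54-fold, 2.41-fold and 2.17-fold above whole nerve at days 3, 5 and 7. Gpc1 was the only member whose counts were not whole numbers, since RSEM divided some fragments between it and other features. The authors selected Gpc1 from these same libraries for a PCR assay and for in situ hybridization with staining of the Schwann cell marker S100. They report that its signal increased after crush in S100-positive cells. They also sequenced CD45-positive cells and report that changes there were typically much smaller for the genes followed. Gpc1 is described here as a member of its family.

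Gpc4, a glypican known from astrocytes as a secreted factor of synapse formation, moved in the opposite direction. Its Schwann cell libraries had 23.8 and 22.9 CPM before crush, 6.26 and 9.27 CPM at day 3, 3.93 and 4.21 CPM at day 5, and 3.46 and 3.27 CPM at day 7. Each later group lay below the one before it without overlap. Gpc4 fell by 1.54 on the log2 scale at day 3 (SE 0.19, edgeR adjusted p = 0.00012). Its change was -2.49 at day 5 and -2.77 at day 7, a level 6.81-fold below uncrushed. Between day 3 and day 7 the change was -1.23 (SE 0.22, edgeR adjusted p = 0.0033).

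Whole nerve held 53.2 and 53.0 CPM of Gpc4 before crush and 40.6 to 53.9 CPM after it. The change there was -0.24 at day 3 and -0.08 at day 5 (edgeR adjusted p = 0.070 and 0.54), and at day 7 it was called (log2 -0.39, SE 0.10, edgeR adjusted p = 0.013). That call was lost in a fit of all 16 libraries (-0.30, edgeR adjusted p = 0.12) and on the FPKM scale, where the direction at days 3, 5 and 7 was upward. At day 5 Gpc4 was called higher on the log2(FPKM + 1) scale (0.31, limma adjusted p = 0.024) and the log2(FPKM + 0.1) scale (0.32, limma adjusted p = 0.023). The median change of all genes at day 5 was 0.294 and 0.395 on these scales. The day 7 call was also lost without either uncrushed library (-0.39 each time) and without the second day 7 library (-0.30).

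Gpc6, a close relative of Gpc4, first fell and then rose in Schwann cells. The libraries had 25.4 and 32.1 CPM before crush, 14.9 and 13.4 CPM at day 3, 32.1 and 28.8 CPM at day 5, and 54.4 and 47.5 CPM at day 7. Day 3 lay below and day 7 above uncrushed without overlap, and day 5 overlapped with it. Gpc6 fell by 0.99 at day 3 (SE 0.15, edgeR adjusted p = 0.00041) and was 1.81-fold higher at day 7 (log2 0.85, SE 0.14, edgeR adjusted p = 0.0010), with a 3.59-fold rise between the 2 days (log2 1.84, SE 0.15, edgeR adjusted p = 5.1e-05). In whole nerve Gpc6 had 88.4 and 114 CPM before crush and 57.6 and 71.5 CPM at day 3, 79.1 and 81.8 CPM at day 5, and 81.1 and 88.1 CPM at day 7. The whole nerve change was -0.71 at day 3 (SE 0.14, edgeR adjusted p = 0.0018), -0.43 at day 5 (adjusted p = 0.033) and -0.35 at day 7 (adjusted p = 0.082, called in 3 of 12 alternatives). The day 3 call was lost on the log2(FPKM + 1) scale (-0.28, limma adjusted p = 0.15). The day 5 call was lost on that scale (-0.01), in the fit of 16 libraries (-0.33), without the second uncrushed library (-0.23) and without the first or second day 5 library (-0.39 and -0.45).

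Gpc3, a glypican known as a regulator of hedgehog and Wnt signalling and of body growth, belonged to whole nerve. There it had 368 and 478 CPM before crush, 373 and 402 CPM at day 3, 484 and 504 CPM at day 5, and 490 and 503 CPM at day 7. Against these levels, Schwann cell libraries had 4.20 and 3.50 CPM before crush, 1.88 and 3.91 CPM at day 3, 0.930 and 1.54 CPM at day 5, and 1.22 and 1.60 CPM at day 7. The difference between the tissues was 109-fold in uncrushed samples (log2 -6.77, SE 0.24, edgeR adjusted p = 5.1e-11), 126-fold at day 3, 402-fold at day 5 and 357-fold at day 7. It was the widest of all members at each time. Without the second day 3 Schwann cell library, which also had the higher macrophage and endothelial sums, the day 3 difference was -7.68 instead of -6.98. Among the fibroblast markers the median difference was -5.82 in uncrushed samples and -6.09, -6.08 and -6.53 at days 3, 5 and 7, with 7 of 8 lower in Schwann cells each time. The exception was Col1a2, which varied within groups (54.7 and 1028 CPM in uncrushed Schwann cells, 202 and 1222 CPM in whole nerve at day 7) and had at most 3 counts in each library of uncrushed and day 5 whole nerve.

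Within Schwann cells, the low Gpc3 signal fell by 1.62 at day 5 (SE 0.44, edgeR adjusted p = 0.011) and changed by -1.44 at day 7 (SE 0.44, edgeR adjusted p = 0.022), but not detectably at day 3 (-0.35, SE 0.40, edgeR adjusted p = 0.49). The fibroblast marker sum, mostly collagens, fell in the same libraries and also at day 3, to 1564 and 1739 CPM, when Gpc3 was not called. Its part in the Gpc3 result was not tested. The day 5 call was lost without the first uncrushed (-1.48) or the first day 5 library (-1.29), and the day 7 call without the first uncrushed (-1.29) or either day 7 library (-1.23 and -1.62). In whole nerve the changes of -0.20, 0.13 and 0.14 did not pass the test. On the log2(FPKM + 1) scale Gpc3 was called higher in whole nerve at day 5 (0.54) and day 7 (0.56).

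The other glypicans were close to absent. Gpc5 had 5 counts in total, in 4 of the 16 libraries, with no more than 2 in any one. Gpc2, a glypican of developing neurons, had 175 counts over 15 of 16 libraries. Its Schwann cell libraries held 8 to 36 counts (0.550 to 1.86 CPM) and its whole nerve libraries 0 to 9 counts (0 to 0.661 CPM). No change of Gpc2 after crush passed the edgeR test in either tissue, and it was called higher in whole nerve at day 7 on both FPKM scales (0.31 with a pseudocount of 1, limma adjusted p = 0.045). In uncrushed samples Schwann cells had 21 counts and whole nerve 2, a ratio of 8.32 with an exact 95% interval of 2.03 to 73.2 that covers counting error only. The call of Gpc2 between tissues was made in uncrushed samples (edgeR adjusted p = 0.049) and at day 5 (adjusted p = 0.047), and each was lost when any of several single libraries was left out.

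Sdc4, the broadly expressed syndecan of focal adhesions, was the most abundant member per length in Schwann cells at every time. Its 2 uncrushed libraries had 1026 and 948 CPM. After crush there were 368 and 423 CPM at day 3, 361 and 481 CPM at day 5, and 483 and 391 CPM at day 7. All 6 crushed libraries lay below both uncrushed ones, and the 3 crushed groups overlapped with each other. Sdc4 fell by 1.28 at day 3 (SE 0.15, edgeR adjusted p = 8.6e-05), and its change was -1.21 at day 5 and -1.15 at day 7, that is 2.44-fold, 2.31-fold and 2.22-fold. Days 3 and 7 differed by 0.13 (SE 0.15, edgeR adjusted p = 0.59).

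In whole nerve Sdc4 moved the other way. The uncrushed libraries had 49.3 and 56.8 CPM, against 95.2 and 90.4 CPM at day 3, 98.9 and 124 CPM at day 5, and 102 and 85.0 CPM at day 7, with no overlap. Sdc4 was 1.67-fold higher at day 3 (log2 0.74, SE 0.14, edgeR adjusted p = 0.0013), 1.97-fold at day 5 and 1.66-fold at day 7. The excess of Schwann cells over whole nerve was 18.6-fold before crush (log2 4.22, SE 0.18, edgeR adjusted p = 1.8e-10) and 4.26-fold, 3.77-fold and 4.67-fold at days 3, 5 and 7.

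Summed over 10 immediate-early genes such as Fos and Junb, a list chosen after the values were seen, uncrushed Schwann cells had 7907 to 9338 CPM and uncrushed nerve 148 to 180 CPM. After crush the sums were 2455 to 3047 CPM in Schwann cells and 298 to 449 CPM in whole nerve. These sums moved with Sdc4 in both tissues, and their part in the Sdc4 result was not tested.

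Sdc1, the syndecan of epithelia and plasma cells, was low but rose in Schwann cells. The libraries had 0.688 and 0.716 CPM before crush, from 10 and 9 counts, and 5.95 and 7.12 CPM at day 3, 6.61 and 8.65 CPM at day 5, and 5.96 and 5.86 CPM at day 7. No crushed library overlapped with the uncrushed ones. The rise was 9.50-fold at day 3 (log2 3.25, SE 0.28, edgeR adjusted p = 1.0e-05), 11.0-fold at day 5 and 8.49-fold at day 7. On the log2(FPKM + 1) scale, which shrinks low genes, the day 3 value was 1.41. Days 3 and 7 differed by -0.16 (SE 0.22, edgeR adjusted p = 0.65).

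In whole nerve Sdc1 had 4.45 and 3.35 CPM before crush and 12.2 and 9.97 CPM at day 3, 9.21 and 10.4 CPM at day 5, and 5.43 and 6.20 CPM at day 7. The rise was 2.67-fold at day 3 (log2 1.42, SE 0.21, edgeR adjusted p = 0.00034) and 2.33-fold at day 5. At day 7 the change of 0.47 was not called (edgeR adjusted p = 0.14), but it was on the log2(FPKM + 1) scale (0.55, limma adjusted p = 0.016) and the log2(FPKM + 0.1) scale (0.85, limma adjusted p = 0.011). Between day 3 and day 7 it fell by 0.95 (SE 0.20, edgeR adjusted p = 0.0072), a call lost without the first day 3 (-0.81) or the first day 7 library (-0.85). Schwann cells were 5.58-fold below whole nerve in Sdc1 before crush and 1.69-fold below at day 3. At day 7 the tissues overlapped, with a difference of 0.02 (SE 0.21). The whole nerve rise occurred while the summed macrophage markers rose from 330 to 361 CPM before crush to 1004 to 1040 CPM at day 3, and the part of those markers was not tested. Of the 2 day 3 Schwann cell libraries, the one with 5.70 CPM of summed macrophage markers had 5.95 CPM of Sdc1 and the one with 22.3 CPM had 7.12 CPM, and the part of those markers was not tested there either.

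Sdc3, the syndecan of the nervous system that binds pleiotrophin, changed little. Schwann cell libraries had 165 and 187 CPM before crush, 125 and 151 CPM at day 3, 145 and 124 CPM at day 5, and 135 and 123 CPM at day 7. The differences from uncrushed were -0.32 at day 3 (edgeR adjusted p = 0.065), -0.36 at day 5 (adjusted p = 0.038) and -0.42 at day 7 (adjusted p = 0.023). The day 3 difference was called in 8 of 12 alternatives, among them DESeq2 (-0.35, adjusted p = 0.031), upper quartile scaling (-0.39) and the fit of 16 libraries (-0.35). The day 5 call was lost with a replicate block (-0.36, edgeR adjusted p = 0.054) and without the second uncrushed (-0.29) or second day 5 library (-0.24). The day 7 call was lost without the second uncrushed library (-0.35) or either day 7 library (-0.48 and -0.36). In whole nerve Sdc3 had 65.6 and 82.7 CPM before crush and 52.8 to 66.8 CPM after it. It was called lower there at day 3 (-0.55, SE 0.12, edgeR adjusted p = 0.0034) and day 5 (-0.39, adjusted p = 0.023). The day 3 value was -0.12 on the log2(FPKM + 1) scale and no longer called. The day 5 value was 0.01 on that scale and -0.30 in the fit of 16 libraries, and it was no longer called without the second uncrushed (-0.21) or either day 5 library (-0.33 and -0.44). Sdc3 stood above whole nerve in Schwann cells at each time, by 2.38-fold before crush and 2.60-fold, 2.23-fold and 2.01-fold after it.

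Sdc2, a syndecan of mesenchymal cells, had its higher level in whole nerve. Whole nerve libraries had 251 and 289 CPM before crush, 211 and 203 CPM at day 3, 255 and 225 CPM at day 5, and 233 and 254 CPM at day 7. Schwann cell libraries had between 40.04 and 58.9 CPM over all times. No change in Schwann cells passed the test, at 0.16, -0.27 and -0.06 for days 3, 5 and 7. The day 5 change was called in 4 of 12 alternatives, namely upper quartile scaling (-0.34), the fit of 16 libraries (-0.30), and without the second uncrushed (-0.35) or the first day 5 library (-0.40). In whole nerve Sdc2 was called lower at day 3 (-0.46, SE 0.10, edgeR adjusted p = 0.0043), a change that was 0.0012 on the log2(FPKM + 1) scale and no longer called. The tissues differed by 5.00-fold before crush and by 3.51-fold, 5.47-fold and 4.79-fold after it.

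**Figure D3:**
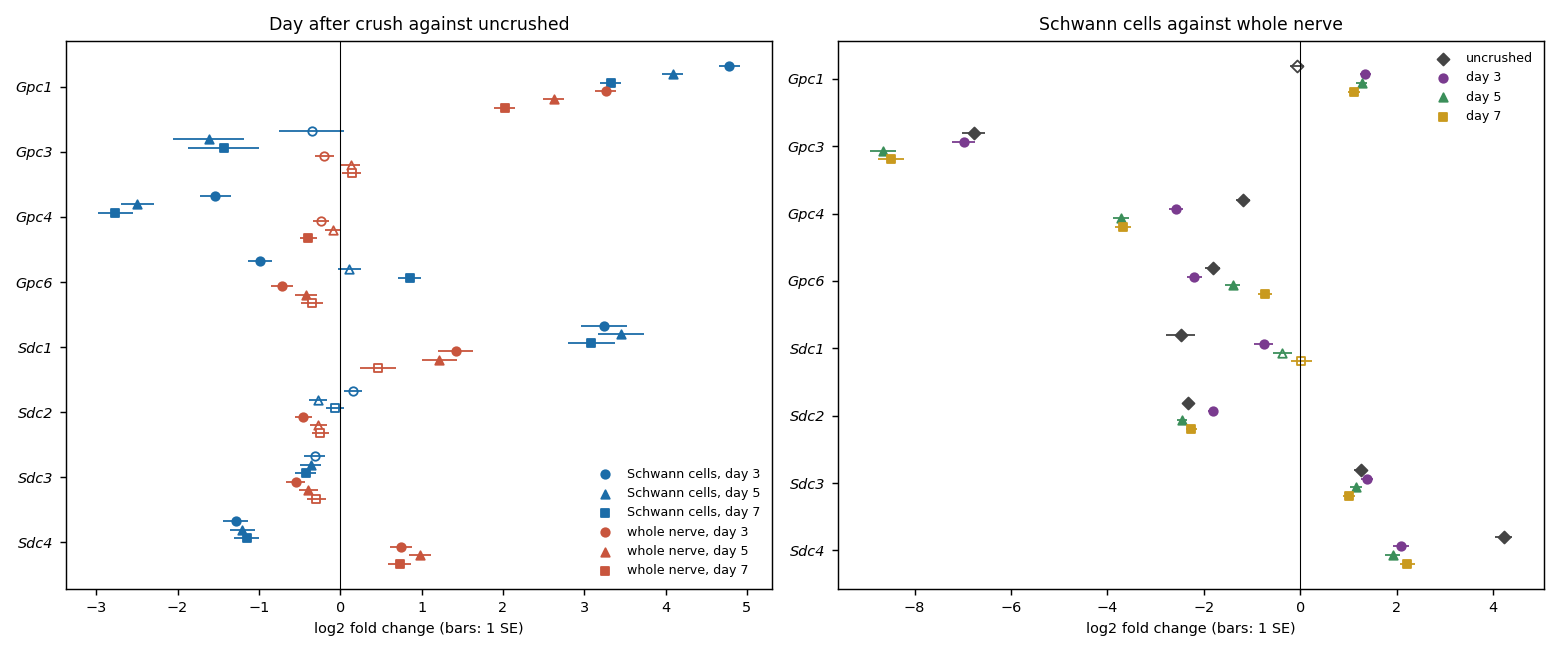
The left panel gives for 8 members the log2 fold change of each day against uncrushed (Schwann cells blue, whole nerve red), and the right panel the log2 difference of Schwann cells from whole nerve at each time. Bars are 1 SE, filled symbols passed an adjusted p of 0.05 and open ones did not. Gpc2 and Gpc5 are left out for their low counts. Sdc4 lies left of 0 in Schwann cells and right of 0 in whole nerve.

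Between Schwann cells and whole nerve, 3 members were higher and 5 lower in uncrushed samples, where 29.1% of 16829 genes were called higher and 35.3% lower. The counts were the same at day 3 (24.5% and 32.8% of genes). At day 5, 4 were higher and 4 lower (23.2% and 28.4%), and at day 7, 3 were higher and 4 lower (22.4% and 28.7%). Sdc3 and Sdc4 were higher in Schwann cells and Gpc3, Gpc4, Gpc6 and Sdc2 lower at all 4 times. The day 3 call of Sdc1 was lost without the first day 3 whole nerve library (-0.60).

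Whether crush had unlike effects in the 2 tissues was tested with an interaction term, the log2 change in Schwann cells minus that in whole nerve. It was called for 5 members at day 3 (26.0% of genes called), 5 at day 5 (27.5%) and 6 at day 7 (26.0%). Sdc4 gave -2.13 (SE 0.23, edgeR adjusted p = 8.7e-06), -2.31 and -1.997 at days 3, 5 and 7. Gpc4 gave -1.39 (SE 0.20, adjusted p = 0.00014), -2.53 and -2.49. Gpc1 gave 1.42 (SE 0.18, adjusted p = 5.2e-05), 1.34 and 1.18, and Sdc1 gave 1.72 (SE 0.36, adjusted p = 0.0029), 2.11 and 2.50. On the FPKM scale the share of all calls that were higher moved from 47.4% to 18.7% at day 3, and the Sdc1 term at days 3 and 5 was no longer called with a pseudocount of 1 (0.16 and 0.52). The remaining calls were Gpc3 at days 5 and 7, Gpc6 at day 7 and Sdc2 at day 3.

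The enzymes that build, modify and cut heparan sulfate were read from lists, given as counts of genes called beside the median log2 change, which over all genes was 0.003 at day 3 in Schwann cells. Every list count by edgeR at day 3 stands against 26.9% of all genes called higher and 25.7% called lower in Schwann cells, and 23.1% and 22.5% in whole nerve. These shares do not hold for list counts on the log2(FPKM + 1) scale, for which the share of all genes is not given here. On that scale the median of all whole nerve genes at day 3 was 0.294. Of 11 genes for chain initiation and polymerisation, 10 were tested in Schwann cells at day 3, and 5 were higher and 1 lower, with a median of 0.50. Extl3, which adds the first N-acetylglucosamine of the chain, rose from 47.3 and 40.8 to 250 and 293 CPM (log2 2.66, then 1.63 and 1.11 at days 5 and 7). B3gat3, which completes the linkage to the core protein, rose by 1.72, 1.59 and 1.37. Of the 2 subunits of the chain polymerase, Ext1 fell (-1.303, -1.26 and -0.95), whereas Ext2 was higher by 0.55, 0.61 and 0.56. In whole nerve Extl3 was higher by 1.52, 0.70 and 0.43 and Ext1 gave -0.27, -0.29 and -0.53, of which the last was called but not on the log2(FPKM + 1) scale (-0.11). The whole nerve list had 5 higher and 0 lower of 10 tested at day 3, with a median of 0.39. On the log2(FPKM + 1) scale it had 7 higher and 0 lower, with a median of 0.68 against 0.294 over all genes.

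Of 16 genes for sulfation and epimerisation 7 were tested in Schwann cells, and 4 were higher and 1 lower at day 3, with a median of 0.73. The 6-O-sulfotransferases parted. Hs6st2 fell from 13.8 and 8.27 to 0.438 and 0.511 CPM (log2 -4.47, then -5.14 and -4.01), and Hs6st1 rose from 41.7 and 37.7 to 63.1 and 65.8 CPM (0.73, then 0.96 and 0.68). The uronosyl sulfotransferase Hs2st1 rose by 1.14, 0.59 and 0.34, the last not called with DESeq2 (0.28) or upper quartile scaling (0.30). Hs3st5 rose by 2.07 at day 3 from 0.344 and 0.398 CPM and was not called at days 5 and 7. In whole nerve the list had 3 higher and 1 lower of 9 tested at day 3, with a median of -0.34. On the log2(FPKM + 1) scale 4 were higher and 0 lower, with a median of 0.02 against 0.294 over all genes. By edgeR, Hs6st2 was higher there at day 3 (1.32) and day 5 (1.16), and Hs6st1 was higher at all 3 times (1.29, 1.19 and 1.16). Sulf2, the extracellular enzyme that removes 6-O-sulfates, rose in Schwann cells by 1.44, 0.77 and 0.98. It was the 1 called of 2 tested among 4 genes of extracellular editing at day 3.

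Of 8 lysosomal enzymes of heparan sulfate breakdown 4 were higher and 2 lower in Schwann cells at day 3, with a median of 0.05. Naglu (1.22) and Gusb (0.93) rose and Hgsnat (-1.05) and Sgsh (-3.39) fell, the last from 2.27 and 1.43 to 0.251 and 0.109 CPM. Of 10 genes for shedding and release 7 were tested, and 1 was higher and 5 lower, with a median of -1.05. The membrane protease Mmp14 rose by 0.93, 0.91 and 0.87. Adam17, a sheddase known to cut syndecans, fell by 0.76 at day 3 and was higher by 0.54 at day 7, from 295 and 287 to 170 and 165 CPM at day 3. Plg, the precursor of plasmin, and Thbd, the thrombin receptor thrombomodulin, fell at day 3 (-4.22 and -3.60). In whole nerve Adam17 was higher at each time (0.46, 1.15 and 1.72). The list there had 3 higher and 1 lower of 8 tested at day 3, with a median of -0.22. On the log2(FPKM + 1) scale the list median was 0.18, against 0.294 over all genes.

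Of 8 cytoplasmic partners of syndecans, 6 were higher and 1 lower in Schwann cells at day 3, with a median of 0.70, where 26.9% of all genes were called higher and 25.7% lower. Prkca, the kinase that Sdc4 binds, rose from 224 and 288 to 708 and 647 CPM (log2 1.44, then 1.58 and 1.27). Syntenin (Sdcbp) rose by 1.04, 0.83 and 0.77, and Cask by 0.34, 0.63 and 0.64. The day 3 call of Cask was lost with DESeq2 (0.30), with upper quartile scaling (0.26) and on the log2(FPKM + 1) and log2(FPKM + 0.1) scales (0.28 and 0.29). Tiam1 fell by 0.93 at day 3. In whole nerve Prkca was lower at each time (-0.81, -0.51 and -0.76), although on the log2(FPKM + 1) scale it was not called at days 5 and 7 (-0.10 and -0.34). The whole nerve list had 2 higher and 2 lower of 7 tested at day 3 with a median of 0.16. On the log2(FPKM + 1) scale it had 5 higher and 1 lower, with a median of 0.54 against 0.294 over all genes. The 7 other heparan sulfate proteoglycans had 3 higher and 3 lower in Schwann cells at day 3. Col18a1 rose by 2.04, 1.94 and 1.60, and Cd44 by 0.66, 0.47 and 0.34. Betaglycan (Tgfbr3) fell from 1282 and 1286 to 297 and 272 CPM (log2 -2.14, then -1.34 and -1.05), and Nrp1 fell too (-1.90, -1.85 and -1.26).

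**Figure D4:**
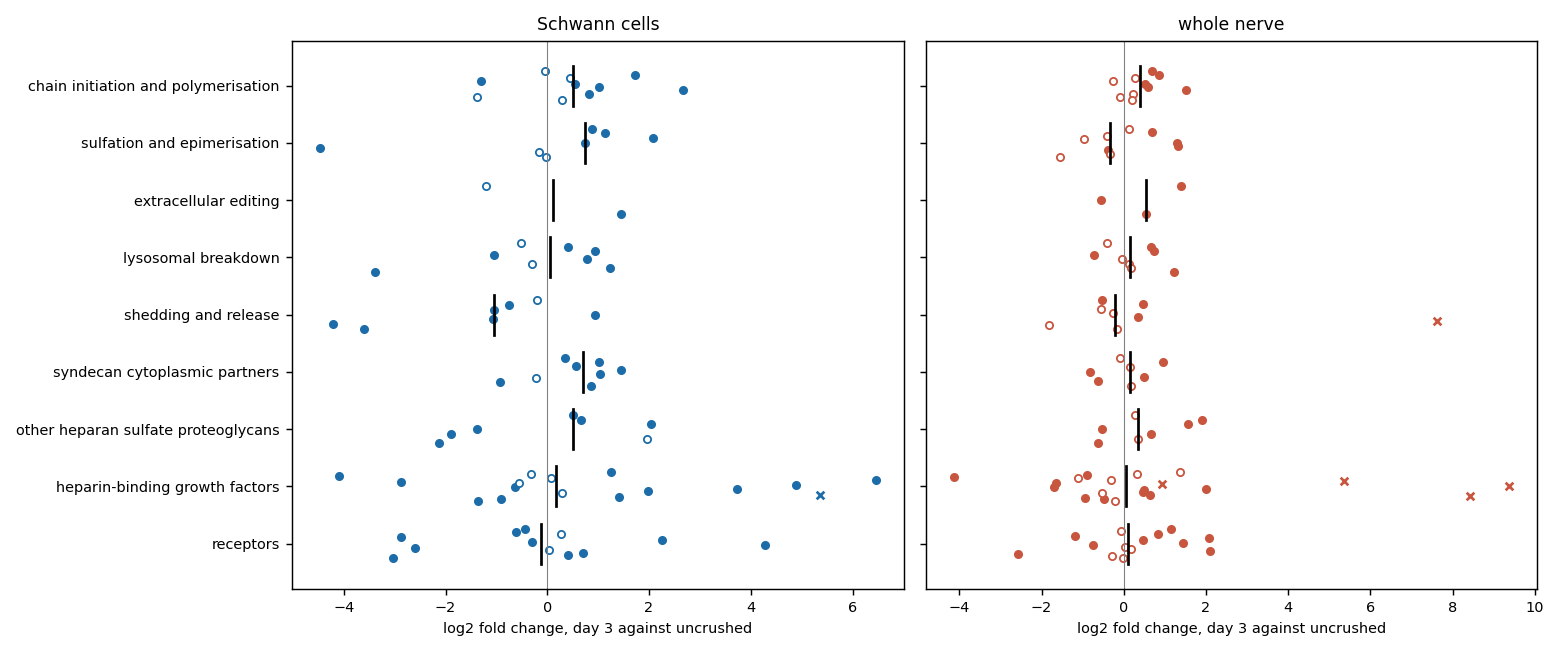
Each point is 1 tested gene of a heparan sulfate list, placed at its log2 fold change at day 3 against uncrushed in Schwann cells (left) and whole nerve (right). Filled points passed an adjusted p of 0.05, open ones did not, crosses had no more than 3 counts in each uncrushed library so that their size is not a measured fold, and black bars are list medians. The medians range from -1.05 for shedding and release to 0.73 for sulfation in Schwann cells.

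Ligands and receptors that use heparan sulfate split in both directions. Of 21 heparin-binding growth factors 16 were tested in Schwann cells, and 7 were higher and 5 lower at day 3 (all genes 26.9% and 25.7%), with a median of 0.18. Fgf5 rose from 0.482 and 0.477 to 42.1 and 41.6 CPM (log2 6.46, then 5.71 and 5.14), and Fgf1 fell from 186 and 180 to 7.70 and 12.6 CPM (-4.11, -3.03 and -3.04). Fgf7 fell as well (-2.88, -2.77 and -2.23). Shh was called higher, at 5.83 and 6.53 CPM at day 3 against no more than 3 counts in each uncrushed library. In whole nerve Fgf1 (-4.14, -3.50 and -3.82) and Fgf7 (-1.66, -2.91 and -2.13) fell. There Fgf5 and Shh had at most 3 counts in each uncrushed library, and 9.80 and 6.96 CPM of Fgf5 at day 3. Of 14 receptors 12 were tested in Schwann cells, and 4 were higher and 6 lower, with a median of -0.13. Met, the receptor of hepatocyte growth factor, rose from 17.6 and 17.9 to 307 and 362 CPM (4.27, 3.59 and 2.86), and Gfra1, the coreceptor of GDNF, by 2.25, 2.72 and 2.43. Fgfr3 fell (-2.89, -3.22 and -4.23), and so did Robo1 at day 3 (-3.03). In whole nerve Met was higher at days 3 and 5 (1.45 and 1.08) and Gfra1 at all times (2.08, 2.90 and 2.53).

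The genes with the pattern most like a member were found by Pearson's r of log2 CPM over the 16 libraries, given as a description of points that share tissue and time. For Gpc1 they were Cubn, Abr and Tbc1d1 (0.990, 0.989 and 0.988), and for Gpc3 they were Lox, Egfr and Dcn (0.997, 0.996 and 0.996). Gpc4 was most like Clec2g, Clec1a and Fam46a (0.995, 0.993 and 0.989), and Gpc6 like Klhl13, LOC102551340 and Postn (0.966, 0.961 and 0.955). For Sdc4 they were Junb, Xpo4 and Fos (0.991, 0.989 and 0.988), of which Junb and Fos are in the immediate-early list above. Sdc1 was most like Gstp1, Akt1 and Cmtm7 (0.976, 0.973 and 0.971), and Sdc2 like Omd, Adamts16 and Cldn1 (0.996, 0.995 and 0.994). Gpc2 was most like Cbx2, Tspan14 and LOC108351262 (0.901, 0.875 and 0.870). Among the members themselves, the highest r was 0.989 for Gpc3 with Sdc2, both of them the leading whole nerve members, followed by 0.921 for Gpc3 with Gpc4 and 0.912 for Sdc3 with Sdc4.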

How the data were processed

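RNA of 16 libraries was measured, 8 of immunopanned Schwann cells and 8 of whole sciatic nerve, 2 in each of 8 groups assigned from the labels. Cells bearing CD45 or Thy1 had been depleted from the Schwann cell preparations before selection with O4. The authors amplified the cDNA, aligned the reads to Rnor_6.0 with STAR and deposited the unnormalized expected counts that RSEM gave for 31038 genes. The deposited TPM and FPKM come from the same RSEM step. A deposited matrix of the same expected counts was not used. A deposited table of co-expression modules, with 8 columns of per-sample FPKM values that name a day but no sample, was not used either, since its module column is the authors' own result.

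After rounding of the expected counts, low genes were filtered with filterByExpr, libraries were scaled by TMM, and edgeR 4.0.16 (R 4.3.3) gave quasi-likelihood tests, called at a Benjamini-Hochberg adjusted p of 0.05 over all genes tested. Changes after crush were fitted on the 8 libraries of each tissue, and differences between tissues on all 16. CPM values use the scaling of the 16 libraries, so ratios of printed CPM differ slightly from fold changes fitted within a tissue. The standard error came from the F statistic of each test (absolute log2 change over root F), and 95% intervals are 1.96 standard errors wide on each side. The test code was run on simulated counts with the same spread for every gene and a small share of genes changed, all above a minimum count. That setting covers neither changes of low members nor the scaling difference of uncrushed whole nerve. Library sums of 10555067 to 27562637 fragments set the precision. The floor was set at 3 counts per library, and counting intervals cover counting error only, since no molecular identifiers are named in the methods.

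The members and the gene lists were chosen with earlier results of these data known. The text names all 10 members, from each heparan sulfate list the 2 called genes with the largest and the 2 with the smallest change in Schwann cells at day 3, and for each member the 3 genes of highest Pearson's r in log2 CPM (prior count 2) over 16 libraries, which for Sdc3 are not reported here. Promoter windows came from RefSeq on GRCr8, a build other than that of the counts, and no genome was used. Alternatives were DESeq2 1.42.0, upper quartile scaling, no filter, limma 3.58.1 on log2(FPKM + 1) and log2(FPKM + 0.1), a replicate block, other sets of libraries in the fit, TPM for levels, and each library left out.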

Additional observations from a re-analysis of the deposited data

Results flagged for a closer look

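For 7 members the effect of crush differed between Schwann cells and whole nerve by the interaction term (log2 change in Schwann cells minus log2 change in whole nerve, edgeR, adjusted p below 0.05). Per day these were 5, 5 and 6 members, where 26.0%, 27.5% and 26.0% of all genes were called. Gpc1 rose in both tissues and more in Schwann cells, with differences of 1.42, 1.34 and 1.18 at days 3, 5 and 7. Sdc1 gave 1.72, 2.11 and 2.50, and its terms at days 3 and 5 were not called with limma on log2(FPKM + 1). Sdc4 fell in Schwann cells and rose in whole nerve, with differences of -2.13, -2.31 and -1.997. Gpc4 gave -1.39, -2.53 and -2.49. Gpc3 differed at days 5 and 7 (-1.88 and -1.71), where its level in Schwann cells was at most 1.60 CPM. For Gpc6 the difference passed at day 7 (1.09). The Sdc2 difference at day 3 (0.51) was the smallest, and it was not called with limma on log2(FPKM + 1) (0.15) or log2(FPKM + 0.1) (0.16), nor without the second uncrushed Schwann cell library (0.45), either day 3 Schwann cell library (0.51 each time), the second uncrushed whole nerve library (0.42) or the second day 3 whole nerve library (0.48).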

How the results depend on the processing

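Depth limited Gpc2 and Gpc5, and the scale limited whole nerve members with changes of up to -0.71 in log2 (Gpc6 at day 3). Of 1597 alternative values for single members 1449 kept direction and side of the threshold, 51 lost a call, 42 gained one and 55 changed direction. Of 181 alternative counts 168 stayed within 1.5 times the reported count. The count of members called at day 3 in whole nerve was 3 instead of 6 with limma on either FPKM scale, and at day 7 it was 5 instead of 3 on either. At day 5 it was 3 instead of 5 in the fit of 16 libraries, and 3 to 6 with a library left out. Between day 7 and day 3 of whole nerve it was 4 instead of 2 with no filter, and 1 to 2 with a library left out. The interaction at day 3 had 3 calls instead of 5 with limma on log2(FPKM + 1).

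The labels give replicate numbers but do not say whether same-numbered libraries were processed together. Correlations of the deviations of same-numbered libraries within a tissue lay between -0.040 and 0.076, which cannot exclude such a pairing. With a replicate block, 5 members were called in whole nerve at day 7 and 4 between its days 7 and 3, and elsewhere the counts stayed within 1.5 times.

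Directions changed as follows, and the cause was not tested beyond the shift of the FPKM scale given above. With limma on log2(FPKM + 1) and log2(FPKM + 0.1), whole nerve gave 0.22 and 0.22 for Gpc3, 0.16 and 0.17 for Gpc4, and 0.0012 and 0.0012 for Sdc2 at day 3. At day 5 it gave 0.31 and 0.32 for Gpc4, 0.16 and 0.16 for Sdc2, and 0.014 and 0.016 for Sdc3. At day 7 it gave 0.020 and 0.021 for Gpc4, 0.061 and 0.066 for Gpc6, 0.18 and 0.18 for Sdc2, and 0.11 and 0.11 for Sdc3. On the same scales Sdc2 in Schwann cells at day 7 was 0.044 and 0.046, Gpc1 in uncrushed Schwann cells was 0.20 and 0.24 above whole nerve, and the interaction was -0.24 and -0.24 for Sdc3 at day 3, -0.14 and -0.14 for Sdc2 at day 7, and 0.10 for Gpc2 at day 5 with a pseudocount of 1. The fit of 16 libraries gave 0.012 for Gpc4 in whole nerve at day 5. Sdc4 between days 7 and 3 of whole nerve was 0.025 with upper quartile scaling, 0.011 in the fit of 16 libraries and 0.00039 in the fit of 4.

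With single libraries left out, where the lone library of a group was assumed to vary like the others, in Schwann cells against uncrushed Gpc2 ranged from -0.74 to 0.14 at day 3 and from -0.17 to 1.28 at day 5, Gpc3 from -0.99 to 0.028 at day 3, and Gpc6 from -0.047 to 0.27 at day 5. In whole nerve Gpc2 ranged from -3.65 to 2.18 at day 3, and Gpc3 from -0.37 to 0.01, -0.045 to 0.33 and -0.037 to 0.34 at days 3, 5 and 7. From day 3 to day 7, Sdc3 ranged from -0.23 to 0.040 and Sdc4 from -0.022 to 0.27 in Schwann cells, and Sdc4 from -0.14 to 0.12 in whole nerve. Between tissues, Gpc1 ranged from -0.26 to 0.12 in uncrushed samples and Sdc1 from -0.073 to 0.12 at day 7. For the interaction, Gpc2 ranged from -2.62 to 3.34 at day 3 and from -1.63 to 0.30 at day 5, Gpc3 from -0.91 to 0.14 at day 3, Sdc3 from -0.026 to 0.31 at day 3 and from -0.26 to 0.080 at day 5, and Sdc2 from -0.057 to 0.15 at day 7. None of these results was called by edgeR in the fits reported above.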
